A study of Homo sapiens with 26 samples.

Results

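The sites described here are places in the genome of human fibroblasts where peaks of 2 ectopic liver transcription factors, FOXA1 and HNF4A, coincided and where the FOXA1 variant that the labels call dbd had no peak. They were the FOXA1 peaks that shared at least 1 bp with an HNF4A peak and none with a FOXA1dbd peak. This selected 1315 of 155652 FOXA1 peaks, called the shared sites below. The members were thus chosen by their overlap with the HNF4A and FOXA1dbd lists, so these overlaps, and the FOXA1 and HNF4A scores and positions that come with them, are given as descriptions.

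The data were ChIP-seq peak lists from BJ cells, an established line of foreskin fibroblasts, and the immunoprecipitation was directed at a HALO tag fused to each protein. Each HALO-tagged protein had been expressed ectopically for 48 hours. The constructs used here were FOXA1, 3 FOXA1 variants (FOXA1dbd, FOXA1nhaa and FOXA1rraa) and HNF4A, and the labels list 2 ChIP libraries and 2 input libraries for each. What was changed in each variant is not given in the sources used here, and the HALO-tagged H2B samples of the series were not analysed here. There was 1 peak list per construct, and FOXA1 had a down-sampled one besides. No read counts were given, so the depth is unknown, and with 1 list per construct no replicate error and no test between constructs could be had. Shares of peaks therefore carry 95% Wilson intervals and differences between shares 95% Newcombe intervals. Both cover counting error over peaks only.

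FOXA1 is a forkhead protein known as a pioneer factor, because its winged-helix domain can engage target DNA in closed chromatin. HNF4A is a nuclear receptor that binds DNA as a homodimer and drives much of the gene programme of hepatocytes. The 2 factors share many enhancers in liver, a tissue that fibroblasts do not resemble. Fibroblast enhancers, for their part, are known for sites of AP-1, the dimer of FOS and JUN proteins, and of TEAD and RUNX factors.

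The composition of the lists bears on how the variants can be used. Of 71202 FOXA1rraa rows, 41253 were rows of the FOXA1nhaa list with the same coordinates and name, 23216 were rows of the FOXA1 list and 6733 were in neither. None of those 6733 rows overlapped a shared site. None of the 23216 rows taken from the FOXA1 list overlapped a FOXA1nhaa peak. FOXA1rraa is therefore no readout independent of FOXA1nhaa and FOXA1 here, and FOXA1nhaa serves as the separate one. In the FOXA1dbd list, 2952 of 28850 rows had the coordinates of FOXA1 rows. The down-sampled FOXA1 list held 38291 rows, the same number as the HNF4A list, and its rows covered 25.2% of the shared sites against 24.6% of all FOXA1 peaks.

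Windows of 120 bases, read from the plus strand of the GRCh37 reference, show what lay under both peaks at once. The first 5 were taken from the sites with a forkhead core (TGTTTAC or TATTTAC) or an HNF4 core (CAAAGTCCA or CAAAGGTCA) in the bases that both peaks share. The last, chosen after the values were seen, has an AP-1 core (TGANTCA) there at a site of high HNF4A enrichment. Each core was searched on both strands, and capitals mark the cores. The intervals are chr1:113180561-113180680, chr2:180137233-180137352, chr12:50698118-50698237, chr7:7900972-7901091, chr13:27833144-27833263 and chr1:210771627-210771746, in this order.
CAPZA1 intron, HNF4 and forkhead: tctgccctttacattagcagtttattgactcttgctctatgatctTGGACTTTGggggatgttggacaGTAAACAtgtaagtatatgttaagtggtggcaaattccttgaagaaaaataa
Near SESTD1, HNF4: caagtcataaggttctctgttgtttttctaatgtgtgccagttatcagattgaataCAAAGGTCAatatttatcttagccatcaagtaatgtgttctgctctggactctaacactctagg
Near LIMA1, HNF4 and AP-1: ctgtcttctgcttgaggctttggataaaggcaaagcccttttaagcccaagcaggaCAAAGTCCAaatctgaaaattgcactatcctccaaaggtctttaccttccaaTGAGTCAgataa
UMAD1 intron, forkhead: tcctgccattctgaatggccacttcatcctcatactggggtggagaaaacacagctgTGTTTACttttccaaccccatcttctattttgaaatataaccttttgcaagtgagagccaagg
Near RPL21, forkhead: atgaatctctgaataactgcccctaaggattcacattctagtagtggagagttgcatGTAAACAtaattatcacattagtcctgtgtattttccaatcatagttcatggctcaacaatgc
HHAT intron, AP-1: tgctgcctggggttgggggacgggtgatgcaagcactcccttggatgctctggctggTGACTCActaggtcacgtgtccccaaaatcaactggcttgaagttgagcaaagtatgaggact

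The CAPZA1 window was the only one of the 1315 shared sites with both a forkhead and an HNF4 core in the shared bases, 14 bp apart. CAPZA1 encodes a subunit of the actin capping protein, and its FOXA1 peak (chr1:113180442-113180706) had a score of 101 and its HNF4A peak a fold enrichment of 6.92. The window near SESTD1 lay under stronger peaks of both factors, with a FOXA1 score of 353 and an HNF4A fold of 12.9 over 389 shared bp. The window near LIMA1 lay between genes, and the start of LIMA1, a gene for an actin-binding protein, was 21002 bp from the FOXA1 peak. This window held an AP-1 core beside its HNF4 core and lay under peaks with a FOXA1 score of 317 and an HNF4A fold of 10.5. Neither variant list had a peak there, while the CAPZA1 and SESTD1 sites were in both. The AP-1 window in HHAT lay under a strong HNF4A peak, with a fold of 23.4, and was in neither variant list. Beside its AP-1 core this window also holds AGGTCA, a nuclear receptor half-site, in small letters.

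At the shared sites FOXA1 peaks had ordinary scores and the bases were less AT-rich than at most FOXA1 peaks. The authors' FOXA1 score had a median of 112 (quartiles 75 and 170.5, range 21 to 541), against 124 over all FOXA1 peaks and 166 at the 1294 FOXA1 peaks that overlapped both HNF4A and FOXA1dbd, called the sites with FOXA1dbd. The median width was 284 bp, against 388 bp at the sites with FOXA1dbd. The median GC content of the central 200 bp was 38.5% at the shared sites and at the sites with FOXA1dbd, and 32.5% at the 127382 FOXA1 peaks that overlapped neither list, called FOXA1-only peaks. The 1302 HNF4A peaks involved had a median GC of 45%, below the 53.5% of HNF4A peaks without FOXA1. Their median fold enrichment was 5.98, against 5.94 for HNF4A peaks without FOXA1, so by this measure the HNF4A peaks too were ordinary. Their median −log10 q-value was higher, at 11.2 against 9.93. The HNF4A score is the same measure on another scale (1388 and 138.9 at the highest of these peaks), with medians of 111.5 and 99.

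**Figure D1:**
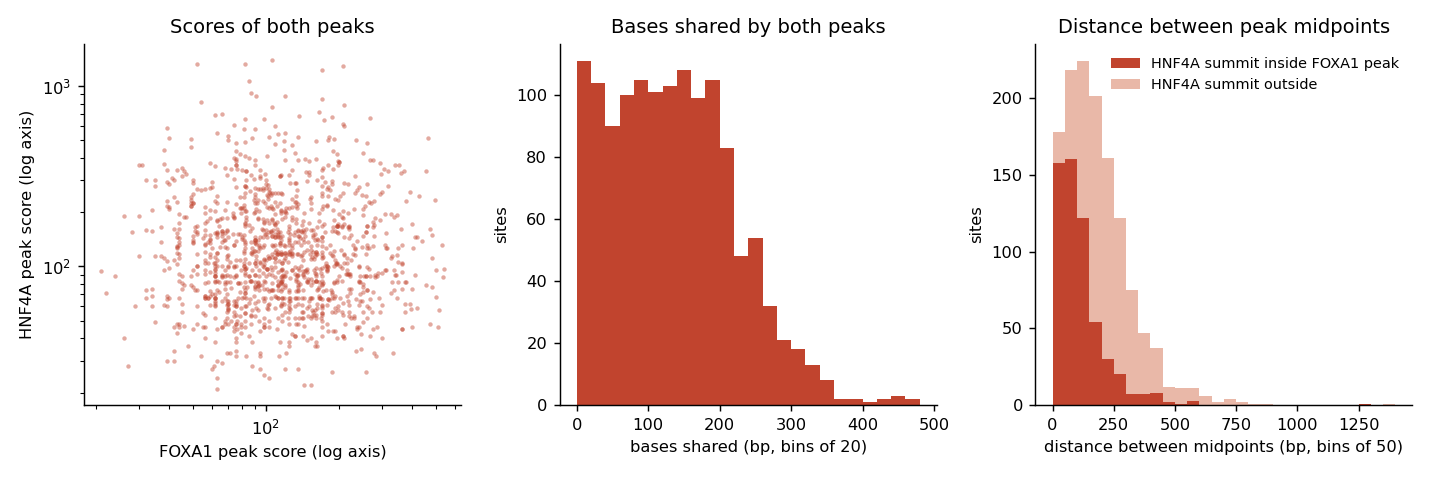
Each point of the left panel is 1 of the 1315 shared sites, with its FOXA1 score against the score of the HNF4A peak it shares most bases with, both on log axes. The middle and right panels count sites by shared bases (median 128 bp) and by the distance between peak midpoints (median 161 bp), the latter split by whether the HNF4A summit lies inside the FOXA1 peak.

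Peaks of the 2 factors overlapped in part at most sites. They shared a median of 128 bp (quartiles 65 and 192, range 1 to 463), which was 42.0% of the FOXA1 peak and 41.1% of the HNF4A peak. Their midpoints lay a median of 161 bp apart (quartiles 85.5 and 250). The HNF4A summit fell inside the FOXA1 peak at 573 sites (43.6%), the FOXA1 midpoint inside the HNF4A peak at 610 (46.4%), both at 403 (30.6%) and neither at 535 (40.7%). One peak lay whole inside the other at 158 sites (12%, FOXA1 inside HNF4A) and at 142 (10.8%, the reverse). The midpoints were within 200 bp at 62.9% of the shared sites and at 67.4% of the sites with FOXA1dbd. The scores of the 2 peaks did not move together: across the 1315 sites, which come from the same 2 lists, their Spearman correlation was -0.025.

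The edge of the selection was gradual on the HNF4A side. At 54 sites the peaks shared 10 bp or fewer, and 52 FOXA1 peaks without FOXA1dbd lay 0 to 9 bp from an HNF4A peak and were left out. Among those just inside was a peak 216 bp from the start of SF3B5, a splicing factor gene, with 1 shared bp, a FOXA1 score of 44 and an HNF4A fold of 8.43. Among those just outside was a peak in an intron of NEK7, a mitotic kinase gene, with a FOXA1 score of 74. On the FOXA1dbd side the edge was wide: no shared site lay within 100 bp of a FOXA1dbd peak, the smallest gap was 105 bp and the median 15724 bp. Over all 128697 FOXA1 peaks without FOXA1dbd, 84 lay within 100 bp of one, and the smallest gap was 74 bp. The wide edge was thus not particular to the shared sites. The count of 1315 includes 92 rows that are pieces of a named FOXA1 peak (7.0%, against 8.07% of all FOXA1 peaks), and 18 of these have another piece that overlaps FOXA1dbd.

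The strongest sites for one factor were not those for the other. FOXA1 scored highest, at 541, at chr17:70622339-70622777, in an intron 812 bp from the start of the pseudogene RPL32P33, where the HNF4A fold was 5.73. The next 4 lay in introns of PRDM2, which encodes a histone methyltransferase, of UMAD1, of a noncoding gene near the start of FILNC1, and of SNX4, a sorting nexin gene, with scores of 536, 529, 516 and 510 and HNF4A folds of 5.60, 6.72, 4.48 and 3.89. The FOXA1nhaa list had a peak at each of these 5 except SNX4. HNF4A was highest at chr2:242486663-242486893, near BOK, a gene of the BCL2 family, with a fold of 34.0 beside a FOXA1 score of 106. It was next highest near LDHA, the gene of lactate dehydrogenase A, where 1 HNF4A peak with a fold of 31.2 covered 2 FOXA1 peaks with scores of 52 and 82. These lay between genes, 10767 and 10059 bp from a start of LDHA and nearer, at 3994 and 3286 bp, to that of MIR3159. Then came PHACTR2, 785 bp from its start, with a fold of 29.5 and a FOXA1 score of 207, and RALGPS2 with 26.7 and 170. The PHACTR2 site shared only 27 bp, and it alone of these 5 was overlapped by FOXA1nhaa. None of the 10 sites had a forkhead, HNF4 or AP-1 core in the central 200 bp of its FOXA1 peak. That window covers only a part of wide peaks. The UMAD1 peak, 1479 bp wide, had its forkhead core outside it, in the shared bases printed above. At PHACTR2 the 2 midpoints were 899 bp apart.

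The broadest overlap was in SLC35E3, a gene of the nucleotide-sugar transporter family, where the peaks shared 463 bp (chr12:69180939-69181552) with a FOXA1 score of 189 and an HNF4A fold of 13.9. Next came a noncoding gene's intron on chromosome 1 (460 bp) and an intron of IL7R, the interleukin-7 receptor gene (459 bp). A site far from N6AMT1 shared 441 bp.

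FOXA1nhaa bound the shared sites about as often as any FOXA1 peak, and far less often than the sites where FOXA1dbd was also found. A FOXA1nhaa peak overlapped 535 shared sites, 40.7% (38.1 to 43.4), against 39.7% of all FOXA1 peaks and 35.6% of FOXA1-only peaks. At the sites with FOXA1dbd the share was 65.0%, so the shared sites were lower by 24.3 percentage points (20.5 to 28.0). This difference exceeds the counting error over peaks. Without the 167 sites whose row is itself a FOXA1dbd row, the share with FOXA1dbd was 65.7%. FOXA1 peaks that overlapped FOXA1dbd but no HNF4A peak were at 58.9%. A higher FOXA1nhaa share with FOXA1dbd than without it was thus also seen away from HNF4A peaks. Sites without FOXA1dbd also had lower FOXA1 scores and narrower peaks, which move with the share, so the comparison was repeated within score quintiles of all FOXA1 peaks. In the lowest quintile (scores 20 to 72) FOXA1nhaa overlapped 26.3% of shared sites, 42.7% of sites with FOXA1dbd and 24.0% of FOXA1-only peaks. In the highest quintile (scores of 217 and more) the shares were 62.3%, 78.1% and 57.1%. At widths of up to 200 bp they were 21.8%, 43.6% and 21.9%, so that shared sites did not lie above FOXA1-only peaks there. At widths of 200 to 400 bp they were 37.8%, 54.2% and 31.1%, and at widths over 400 bp 63.9%, 79.5% and 56.6%. The order of the 3 sets was the same in each of the 5 quintiles. The intervals of shared sites and sites with FOXA1dbd were apart in each.

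**Figure D2:**
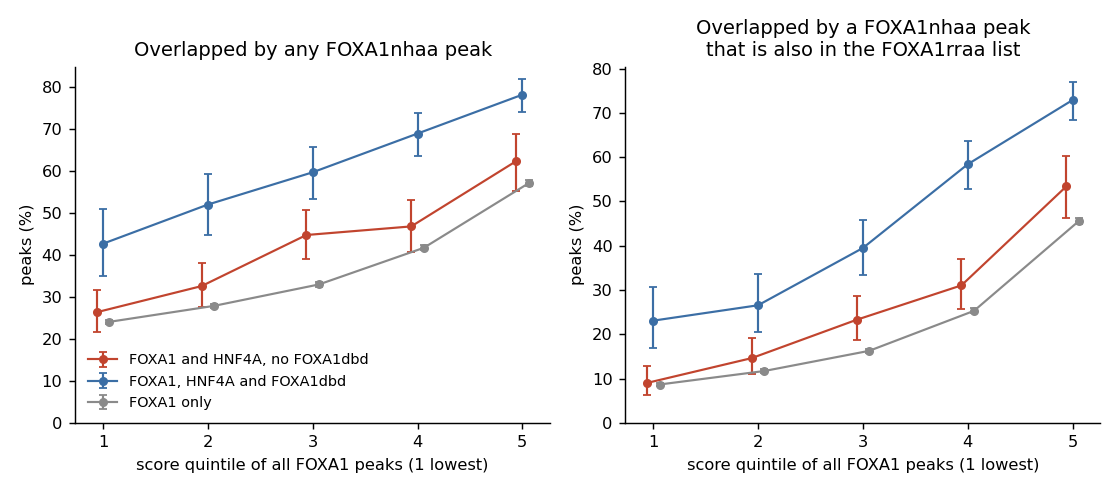
Share of peaks (%) overlapped by FOXA1nhaa, left, and by FOXA1nhaa peaks that the FOXA1rraa list also holds, right, in score quintiles of all FOXA1 peaks, with 95% Wilson intervals. The shared sites run from 26.3% to 62.3% on the left, below the sites with FOXA1dbd and above FOXA1-only peaks in every quintile. The intervals of shared sites and FOXA1-only peaks are apart there in the middle quintile only.

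Base composition separated the shared sites further. Where the central 200 bp had a GC content of up to 35%, FOXA1nhaa overlapped 47.8% of the shared sites, and where it was over 45% the share was 22.5% (17.5 to 28.5). Over all FOXA1 peaks these shares were 38.2% and 33.4%, and at FOXA1-only peaks 34.7% and 27.2% (24.7 to 29.8). Above 45% GC the shared sites were thus no longer above FOXA1-only peaks. The sites with FOXA1dbd were at 69.7% and 58.8% (50.7 to 66.4). The share also differed within the set by how the 2 peaks were placed. It was 45.5% where the HNF4A summit lay inside the FOXA1 peak and 36.9% where it lay outside, a difference of 8.62 points (3.26 to 13.9). Where the peaks shared 200 bp or more it was 49.1%, and at 50 bp or fewer 37.7%. These classes also differ in FOXA1 width, whose part in this was not tested. By score quintile of HNF4A peaks it had no single direction, with 34.2%, 42.2%, 41.4%, 46.1% and 37.4% from the lowest to the highest (highest minus lowest 3.20 points, -5.50 to 11.7).

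The FOXA1rraa list held 37.6% of the shared sites, against 39.9% of all FOXA1 peaks and 67.2% of the sites with FOXA1dbd. It is made up of 2 parts that do not overlap. At 314 sites the FOXA1rraa peak was a FOXA1nhaa peak as well, and 180 sites were themselves rows of the FOXA1rraa list without a FOXA1nhaa peak. Leaving the latter kind of row out, the share was 23.9% of shared sites, 25% of all FOXA1 peaks and 51.4% of sites with FOXA1dbd. Of the 535 shared sites with FOXA1nhaa, 58.7% (54.5 to 62.8) were also in the FOXA1rraa list, against 79.1% (76.2 to 81.7) of the 841 sites with FOXA1dbd and FOXA1nhaa. Neither FOXA1nhaa nor FOXA1rraa had a peak at 600 shared sites, 45.6% (43.0 to 48.3), which is near the 45.4% of all FOXA1 peaks. The share was 50.2% at FOXA1-only peaks and 19.2% at the sites with FOXA1dbd. It was 22.6% at FOXA1 peaks that overlapped FOXA1dbd but no HNF4A peak.

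The shared sites lay near transcription starts more often than other FOXA1 peaks. The midpoint was within 1000 bp of an annotated start at 253 sites, 19.2% (17.2 to 21.5), against 8.87% of all FOXA1 peaks and 14.0% of the sites with FOXA1dbd (difference 5.25 points, 2.40 to 8.10). At 188 sites the start was that of a protein-coding gene. For comparison, 40% of HNF4A peaks without FOXA1 lay that near a start. GC content moved with position: 37.8% of shared sites with over 45% GC were near a start. Among sites with up to 35% GC the share was still 15.4% (12.2 to 19.1), against 7.94% of FOXA1-only peaks. Midpoints lay in introns at 69.6%, between genes at 20.5%, in exons of noncoding genes at 5.10%, in UTR exons at 4.18% and in coding exons at 0.608% of the shared sites.

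Sites near starts differed in sequence from the rest of the set. Among the 253 near sites 7.91% held the Sp/KLF core GGGCGG, a promoter element, in the central 200 bp, against 1.60% of the 1062 others. The AP-1 core was rarer near starts, at 15.0% (11.1 to 19.9) against 26.7% (24.2 to 29.5). The forkhead core was found at 21.7% and 16.3%, a difference of 5.45 points (0.252 to 11.3). FOXA1nhaa overlapped 38.3% of the near sites and 41.2% of the others.

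Of 13 core motifs searched in the central 200 bp of the FOXA1 peaks, AP-1 differed most, in percentage points, between the shared sites and FOXA1-only peaks, while the forkhead share was near that of all FOXA1 peaks. A forkhead core was present at 228 shared sites, 17.3% (15.4 to 19.5), against 18.2% of all FOXA1 peaks, 17.6% of FOXA1-only peaks and 13.7% of sites with FOXA1dbd. The AP-1 core was present at 322 shared sites, 24.5% (22.2 to 26.9), against 15% of all FOXA1 peaks, 12.8% of FOXA1-only peaks and 36.4% of sites with FOXA1dbd. The shared sites thus lay 11.7 points (9.41 to 14.1) above FOXA1-only peaks and 11.9 points (8.39 to 15.4) below the sites with FOXA1dbd. In 200 bp around HNF4A centres the AP-1 core was at 28.6% of the HNF4A peaks involved and 22.8% of HNF4A peaks without FOXA1. In the central 200 bp of the FOXA1 peak, those that overlapped FOXA1dbd but no HNF4A peak had an AP-1 share of 24.0%, close to the shared sites. The TEAD core CATTCC was present at 17.6%, against 11.9% of all FOXA1 peaks, and the RUNX core TGTGGT at 15.4%, against 13.2%. The gap to FOXA1-only peaks depended on GC content. Up to 35% GC the AP-1 share was 15.8% (12.7 to 19.6) at shared sites, 12% at FOXA1-only peaks and 23% at sites with FOXA1dbd. At 35 to 45% GC it was 28.1%, 15.0% and 40.7%, and above 45% GC 30.2%, 16.1% and 43.9%.

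**Figure D3:**
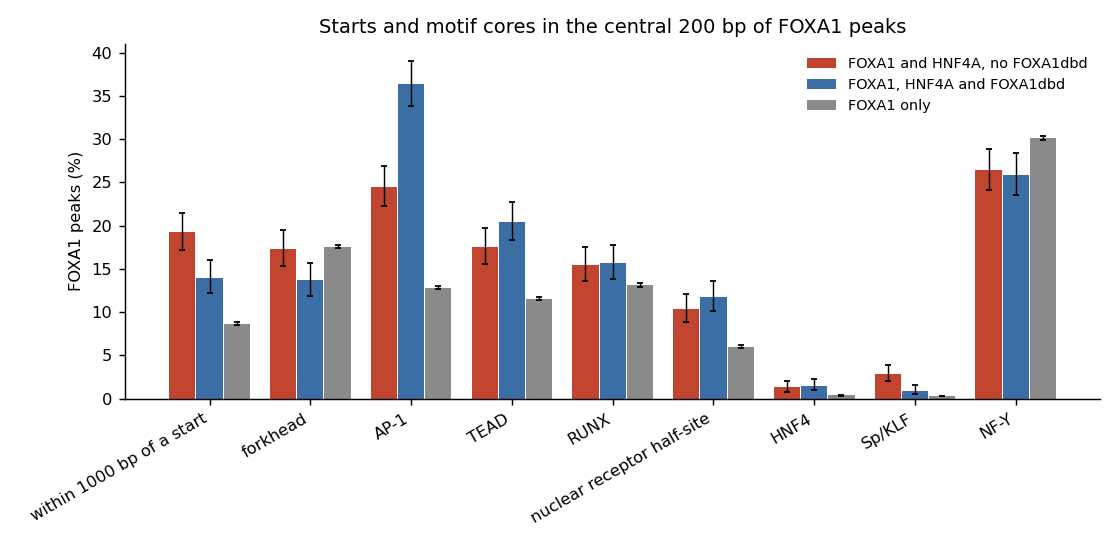
Share of FOXA1 peaks (%) near a transcription start and with each core in the central 200 bp, for the 1315 shared sites, the 1294 sites with FOXA1dbd and the 127382 FOXA1-only peaks, with 95% Wilson intervals. AP-1 is at 24.5%, 36.4% and 12.8%, and the forkhead core at 17.3%, 13.7% and 17.6%.

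The HNF4 core was rare although every site had an HNF4A peak. In 200 bp around HNF4A centres it was at 2.61% of the HNF4A peaks involved. At HNF4A peaks without FOXA1 it was rare too, at 1.83% (difference 0.780 points, 0.0289 to 1.80). In the central 200 bp of the FOXA1 peak it was found at 17 shared sites, 1.29% (0.809 to 2.06). There it was at 0.399% of all FOXA1 peaks and 1.47% of the sites with FOXA1dbd. The nuclear receptor half-site AGGTCA, which the second HNF4 core contains, was found at 10.3%, against 6.19% of all FOXA1 peaks. The Sp/KLF core was at 2.81%, against 0.283% of all FOXA1 peaks and 0.850% of sites with FOXA1dbd. NF-Y's CCAAT was less frequent, at 26.5% against 29.6%. The C/EBP core TTGCGCAA was at none of the 1315 sites, which allows a share of up to 0.291% by the Wilson interval. At 795 shared sites (60.5%) the window held no forkhead, HNF4 or AP-1 core, and at 42 it held both forkhead and AP-1. These letters are strict matches, so a site without one may hold a weaker form of the motif.

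Forkhead and AP-1 cores lay in different places within the sites. In the FOXA1 bases outside the HNF4A peak there were 0.865 forkhead cores per kb (0.759 to 0.983) and 0.617 AP-1 cores (0.527 to 0.717). In the shared bases the forkhead density was 0.709 (0.590 to 0.844) and the AP-1 density 1.94 (1.74 to 2.16). In the HNF4A bases outside FOXA1 peaks they were 0.225 (0.170 to 0.293) and 1.2 (1.07 to 1.35). The intervals are exact Poisson intervals for the number of cores. Forkhead cores thus followed the FOXA1 peak up to and into the overlap, while AP-1 cores were densest in the overlap itself. GC content rose across the same 3 zones, from 35.3% to 42.7% and 50.1%, and its part in this was not tested. The HNF4 core had a density of 0.119 per kb (0.0737 to 0.182) in the shared bases and 0.0901 (0.0565 to 0.136) in the HNF4A-only bases, which are not told apart by their intervals, and 0.0256 (0.0103 to 0.0526) in the FOXA1-only bases. Sp/KLF cores were concentrated in the HNF4A-only bases, at 1.00 per kb against 0.0986 in the FOXA1-only bases. At the sites with FOXA1dbd the AP-1 density in the shared bases was 2.93 per kb, and that of forkhead 0.618.

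The same arrangement was seen by distance. In bins of 50 bp around the FOXA1 midpoint, forkhead cores reached 1.10 per kb beside the midpoint and fell to 0.289 at 350 to 400 bp. Around the HNF4A summit the forkhead core was lowest just beside the summit, at 0.247 per kb, and reached 0.694 at 200 to 250 bp to one side. AP-1 cores were dense around both points, with up to 1.63 per kb at the FOXA1 midpoint and 1.79 at the HNF4A summit. The HNF4 core was highest beside the summit, at 0.278 per kb.

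**Figure D4:**
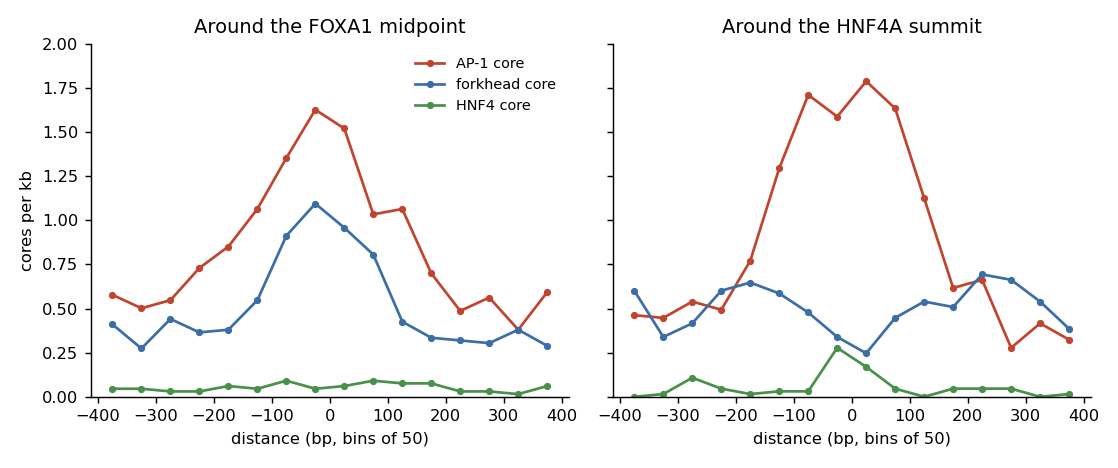
Cores per kb in bins of 50 bp around the FOXA1 midpoints, left, and the HNF4A summits, right, of the shared sites. AP-1 peaks at both points, at 1.63 and 1.79 per kb, while the forkhead core peaks at the FOXA1 midpoint (1.10) and is lowest at the HNF4A summit (0.247).

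In the central 200 bp of the FOXA1 peak, the AP-1 share of the shared sites fell as the FOXA1 score rose. From the lowest to the highest quintile of FOXA1 scores it was 35.3%, 29.6%, 21.8%, 17.7% and 12%, a difference of 23.3 points (15.8 to 30.1) between the ends. In the highest quintile it was near the 11.4% of FOXA1-only peaks, which ranged from 11.4% to 13.2% over the quintiles. The sites with FOXA1dbd kept a higher AP-1 share throughout, from 46.9% at the low end to 33.7% at the high end. At the same time the FOXA1 peaks of the shared sites widened, from a median of 192 to 498 bp, and the midpoints moved apart, from 138 to 212 bp. Measured in 200 bp around the HNF4A summit the fall was smaller, from 34.7% (29.5 to 40.2) to 23.6% (18.1 to 30.1). Among shared sites over 400 bp wide the AP-1 share was 12.2%, against 32.4% at up to 200 bp. The forkhead share showed no such course, with 15.7% and 14.1% at the ends. Within the set the AP-1 core was also more frequent where the HNF4A summit lay inside the FOXA1 peak, at 29.1% against 20.9% (difference 8.26 points, 3.54 to 13.0), and less frequent in the highest than in the lowest quintile of HNF4A scores, at 21.8% against 32.2%.

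**Figure D5:**
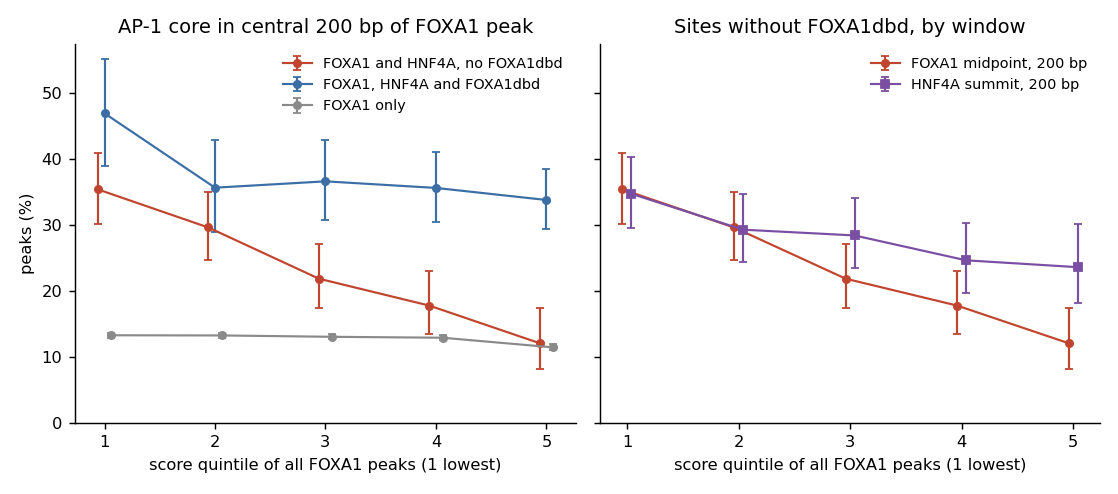
Share of peaks (%) with an AP-1 core in score quintiles of all FOXA1 peaks, with 95% Wilson intervals, for the 3 sets in the central 200 bp of the FOXA1 peak, left, and for the shared sites in 2 windows, right. The shared sites fall from 35.3% to 12% at the FOXA1 midpoint and from 34.7% to 23.6% at the HNF4A summit.

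Few protein-coding genes of any kind had a shared site, and neither of the 2 lists of liver genes had one. Of 19548 protein-coding genes, 1069 (5.47%) had a shared site in the gene or within 10000 bp, while 67.7% had any FOXA1 peak there. Of 32 genes of liver-secreted proteins and enzymes none had a shared site, although 19 had a FOXA1 peak and 14 an HNF4A peak. Of 22 liver transcription factors none had one either, with a FOXA1 peak at 16 and an HNF4A peak at 14. The 32 nuclear genes of the respiratory chain had none, with a FOXA1 peak at 26 and an HNF4A peak at 24. At 5.47% of all genes, lists this short would hold few genes with a site or none. Genes with a site were long, with a median of 88869 bp against 26868.5 bp for all genes, and the liver-secreted list was short, with a median of 13794.5 bp. Length was not adjusted for.

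Each of the fibroblast lists had a few sites. Among 24 fibroblast transcription factors 5 had a site (20.8%, against 5.47% of all protein-coding genes). The 24 genes had a median length of 66250 bp, against 26868.5 bp for all genes, and length was not adjusted for. A FOXA1 peak was at 20 of the 24 and an HNF4A peak at 21. RUNX1 had 3 shared sites, the one with the highest HNF4A enrichment in an intron with a FOXA1 score of 193 and an HNF4A fold of 9.76. TEAD1 had 1, with 2 shared bp and a fold of 5.98. SNAI2 had 2, the stronger 138 bp from the gene's start with a fold of 6.27, and SNAI2 encodes a repressor of the epithelial programme. The TEAD3 site lay between genes, 2580 bp from the start of its neighbour RPL10A, and had the strongest HNF4A peak of this list, with a fold of 14.3 beside a FOXA1 score of 74. At SMAD3, which carries the TGF-beta signal to the nucleus, the site lay 20 bp from an annotated start inside the gene, with an AP-1 core, a FOXA1nhaa peak and a fold of 9.15.

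The other TGF-beta genes with a site were LTBP1, BMPR1A, BMPR2 and TGIF1, so that 5 of 27 (18.5%) had one. These 27 genes were long too, with a median of 82826 bp. BMPR1A and BMPR2 encode receptors of bone morphogenetic proteins, and both sites were overlapped by FOXA1nhaa, with FOXA1 scores of 345 and 218 and HNF4A folds of 7.71 and 8.04. LTBP1, which encodes a protein that holds latent TGF-beta in the matrix, had 2 sites, the stronger with an HNF4A fold of 12.4 and a FOXA1 score of 75. Sites at BMPR2 and TGIF1 lay within 1000 bp of annotated starts of these genes, at 519 and 293 bp.

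Of 21 AP-1 subunits and immediate early genes, with a short median length of 7204 bp, 3 had a site (14.3%). FOS and JUN themselves were not among the 3. These were MAFK and MAFF, which encode small MAF proteins, and ATF3, a stress-induced bZIP gene. MAFK had the strongest HNF4A peak of the 3, with a fold of 15.6 over 222 shared bp beside a FOXA1 score of 74, and its site held both a forkhead and an AP-1 core. The MAFF peak of FOXA1 lay whole, with 276 bp, in an HNF4A peak with a fold of 4.67, 84 bp from a start of the gene. Of 28 genes of matrix proteins 3 had a site, LOXL2, COL6A3 and THBS1, with HNF4A folds of 6.41, 4.54 and 2.80. A FOXA1 peak was at 25 of these 28 genes and an HNF4A peak at 24. Of 28 cytoskeleton and adhesion genes 4 had one, ITGB1, LMNA, CALD1 and MYH9, with folds of 6.54, 4.68, 4.76 and 4.17. The CALD1 site lay 18 bp from a start of this gene for an actin-binding protein and held a forkhead core. Of 30 cytosolic ribosomal protein genes 3 had a site, RPL10A, RPL27 and RPS3. The RPL10A site is the one given above for TEAD3, whose start was 26079 bp away, so it counts in both lists.

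Few genes held several sites. Of the 1069 genes, 99 had 2 and 14 had 3 or more. RHOBTB3 had the most, with 4 shared sites among 35 FOXA1 peaks and 14 HNF4A peaks in and around the gene (chr5:95049226-95160087). Of the 1315 sites, 73 lay within 10000 bp of another. By chromosome the shared sites made up 0.360% (0.183 to 0.709) of FOXA1 peaks on X, 0 of 183 on Y, and 2.43% (1.64 to 3.59) on chromosome 19, a gene-dense chromosome with few FOXA1 peaks (987) for its 1742 HNF4A peaks. As a share of HNF4A peaks the order was different, with 1.44% on chromosome 19 and 5.78% on chromosome 13.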

How the data were processed

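HALO-tag ChIP-seq of ectopic FOXA1, its variants and HNF4A in BJ cells was taken from the peak lists that the authors deposited, 1 per construct and a down-sampled FOXA1 list. The submitters' processing notes name Bowtie2 2.3.4.1, Picard, GATK 4.2.6.0, bedtools 2.27.1, MACS2 2.2.7.1, deepTools 3.5.0 and hg19. The sources used here do not give whether replicates were pooled before peak calling, and the read depth behind the peaks is unknown. The deposited FOXA1 lists hold a score per peak, with a lowest value of 20. The other deposited lists hold per peak a score, the ratio called fold enrichment, −log10 p-values, −log10 q-values and a summit, all the authors' own and used only to describe and rank peaks within a list. 6 H2B samples were not analysed here, and 1 mitochondrial HNF4A peak was left out.

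Overlaps needed 1 shared bp (Python 3.11.15, numpy 2.4.6, pandas 2.3.3), and the count of overlapping peaks was checked against bedtools 2.31.1. Each site was paired with the HNF4A peak sharing most bases. Chromosome ends in the lists lay within GRCh37, which gave the sequence. Genes were those of GENCODE 44 on GRCh37. Centres were FOXA1 midpoints and HNF4A summits, or midpoints where a summit lay outside its row. Cores were exact matches on both strands in 200 bp, and starts counted within 1000 bp. Intervals are at 95% (statsmodels 0.14.6). Quintiles were taken over all FOXA1 or all HNF4A scores. The code was tested on simulated peaks. The members, gene lists, cores and comparisons were chosen with earlier results of these data known. Named sites were the 5 highest by FOXA1 score, by HNF4A −log10 q-value and by shared bases, those with both cores, the edges of the selection and, per gene list, up to 5 genes by HNF4A −log10 q-value. One site that this rule names is not reported here. The alternatives were stricter overlap, centres within 200 bp, the top 50% by score, distance from FOXA1dbd, joined rows, chromosomes 1 to 22, other windows and distances, and other FOXA1rraa rows.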

Additional observations from a re-analysis of the deposited data

How the results depend on the processing

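Of 60 recomputed values, 40 stayed within the interval (or 1.5 times the count) of the value reported. No paired analysis was possible because there is a single deposited list for a construct, without replicate numbers, which also means that no replicate could be dropped in turn. Joining rows by peak name, leaving out sites within 1000 bp of a FOXA1dbd peak and keeping chromosomes 1 to 22 moved none of the 8 quantities. Requiring an overlap of 50% of the shorter peak gave 759 sites, with an AP-1 share of 30.6% and a midpoint distance of 96 bp. Centres within 200 bp gave 854 sites, with FOXA1nhaa at 36.2%, FOXA1rraa at 33.3%, starts at 16.2%, AP-1 at 31.3% and a distance of 109 bp. The top 50% of both lists by score gave 300 sites, with FOXA1nhaa at 53.3%, FOXA1rraa at 52.3%, AP-1 at 15% and a distance of 219.5 bp. In the central 100 bp the forkhead, HNF4 and AP-1 shares were 9.20%, 0.532% and 13.3%, and in the shared bases the forkhead share was 8.37%, both windows being smaller. Within 2500 bp of a start lay 32.1%. The FOXA1rraa share was 23.9% once rows that the FOXA1 list also holds were dropped. At the sites with FOXA1dbd, leaving out rows that are FOXA1dbd rows, chosen after seeing the data, moved none of 4 shares. The lists give no read counts, so limits on detection are unknown.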
